A study of Mus musculus with 12 samples.

Results

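The nuclear respiratory chain genes are the protein-coding genes whose symbol begins with Nduf, Uqcr, Sdh, Atp5, Cox4, Cox5, Cox6, Cox7 or Cox8. Their Ensembl identifiers were given symbols with the GENCODE M1 annotation of mm9. The rule found 94 genes among the 37675 listed. Of these, 83 encode subunits: 38 of complex I, 4 of complex II, 8 of complex III, 18 of complex IV and 15 of complex V. A further 6 are assembly factors (Ndufaf1 to Ndufaf4 and Sdhaf1 and Sdhaf2), and 5 only share a prefix (Cox4nb, Atp5s, Atp5sl, Atp5l-ps1 and Ndufa4l2). Ndufb8 is listed under 2 identifiers, so the 94 genes have 93 symbols. The tissue was whole testis of the inbred mouse strain C57BL/6NHsd at postnatal days (PND) 7, 14, 17, 21 and 28, and 2 mice were used per age. No treatment or genotype beyond the strain is named, and the groups differ in age. The first wave of spermatogenesis runs through these ages. It starts with somatic cells and spermatogonia at PND 7, then early spermatocytes, late spermatocytes, round spermatids and elongating spermatids appear in turn. RNA was sequenced on the SOLiD 4 platform, and each gene has a read count and an RPKM, which divides the count by exon length and by the counted reads of the library.

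The respiratory chain passes electrons from NADH through complex I, or from succinate through complex II, to complex III, then through cytochrome c to complex IV, which reduces oxygen. Complexes I, III and IV pump protons across the inner mitochondrial membrane, and complex V, the ATP synthase, uses the gradient to make ATP. Most subunits are encoded in the nucleus, and a small set that includes the catalytic core of complex IV is encoded in mitochondrial DNA. Some complex IV subunits exist as isoforms from separate genes. Cox6a2, Cox7a1 and Cox8b are the isoforms of heart and skeletal muscle, Cox4i2 is best known from lung, and Cox6b2, Cox7b2 and Cox8c are the testis isoforms. Their widely expressed counterparts are Cox6a1, Cox7a2, Cox8a, Cox4i1, Cox6b1 and Cox7b. Meiotic and postmeiotic germ cells sit behind the blood-testis barrier of Sertoli cells and are known to use lactate and pyruvate supplied by these cells.

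The coding sequences of the testis isoforms and their counterparts are shown because the counts of a pair can be compared only if reads can tell its members apart. They were read from the GENCODE M1 transcripts of mm9 (NCBIM37). Capitals mark bases that differ from the partner when both are aligned codon by codon, or that lie opposite a gap. Cox6b2 lies at chr7:4703396-4704696 on the minus strand and Cox6b1 at chr7:31401993-31411170, also on the minus strand.
Cox6b2: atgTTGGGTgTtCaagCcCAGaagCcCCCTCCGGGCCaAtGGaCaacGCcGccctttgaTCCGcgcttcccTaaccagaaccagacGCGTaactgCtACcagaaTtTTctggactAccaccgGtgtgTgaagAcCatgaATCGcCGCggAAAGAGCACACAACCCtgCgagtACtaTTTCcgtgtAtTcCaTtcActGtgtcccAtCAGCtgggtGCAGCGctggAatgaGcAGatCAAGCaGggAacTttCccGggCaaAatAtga
Cox6b1: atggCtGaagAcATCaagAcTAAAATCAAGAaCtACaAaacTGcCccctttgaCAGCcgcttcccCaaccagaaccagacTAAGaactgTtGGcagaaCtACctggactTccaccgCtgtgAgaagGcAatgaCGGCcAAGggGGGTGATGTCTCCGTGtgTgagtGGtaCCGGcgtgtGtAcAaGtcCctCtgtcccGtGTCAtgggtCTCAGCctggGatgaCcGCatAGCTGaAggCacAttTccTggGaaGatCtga
Cox7b2 lies at chr5:71834063-71939444 on the minus strand and Cox7b at chrX:103211039-103217789 on the plus strand.
Cox7b2: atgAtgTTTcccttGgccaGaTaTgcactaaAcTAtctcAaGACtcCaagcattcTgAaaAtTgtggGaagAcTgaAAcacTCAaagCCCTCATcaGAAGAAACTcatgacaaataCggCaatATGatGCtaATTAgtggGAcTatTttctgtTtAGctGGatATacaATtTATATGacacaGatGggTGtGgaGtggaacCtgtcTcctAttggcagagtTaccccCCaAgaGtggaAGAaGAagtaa
Cox7b: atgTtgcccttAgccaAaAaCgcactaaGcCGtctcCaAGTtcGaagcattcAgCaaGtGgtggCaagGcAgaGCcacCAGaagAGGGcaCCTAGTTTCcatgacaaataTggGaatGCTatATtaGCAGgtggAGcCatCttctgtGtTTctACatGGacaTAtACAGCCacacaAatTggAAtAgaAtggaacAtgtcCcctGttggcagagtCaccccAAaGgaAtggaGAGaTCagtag
Cox8c lies at chr12:104137516-104138744 on the plus strand and Cox8a at chr19:7289648-7292106 on the minus strand. For Cox8c the longest open reading frame of its transcript is printed, because the annotated coding part holds no start codon in frame.
Cox8c: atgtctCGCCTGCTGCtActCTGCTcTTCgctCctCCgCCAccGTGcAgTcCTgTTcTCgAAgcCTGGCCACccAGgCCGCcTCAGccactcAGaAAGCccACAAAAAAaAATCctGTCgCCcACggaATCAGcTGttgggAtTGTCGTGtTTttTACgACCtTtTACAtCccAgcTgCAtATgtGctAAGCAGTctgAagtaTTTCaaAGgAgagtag
Cox8a: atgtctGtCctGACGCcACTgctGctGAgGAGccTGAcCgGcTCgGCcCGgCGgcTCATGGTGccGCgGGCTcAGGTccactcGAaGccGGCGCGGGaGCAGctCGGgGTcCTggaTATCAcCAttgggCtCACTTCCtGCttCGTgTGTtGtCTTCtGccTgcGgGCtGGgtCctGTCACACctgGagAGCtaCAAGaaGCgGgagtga

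The encoded proteins have 88 and 86 residues for Cox6b2 and Cox6b1, and 47 of 86 aligned residues (54.7%) are identical. Cox7b2 and Cox7b have 82 and 80 residues with 50% identity over 80 aligned positions. Cox8c and Cox8a are the least alike, with 72 and 69 residues and 32.4% identity over 68 positions. The longest run of bases shared by the 2 whole transcripts was 14 for the Cox6b pair, 11 for the Cox7b pair and 9 for the Cox8 pair. No stretch of 50 bases, the read length, was common to any of these pairs. In Cox6b2, Cox7b2 and Cox8c, 0 of the 50-base stretches of the transcripts had an exact copy elsewhere in the genome. In the partners such copies made up 2.63% (Cox6b1), 6.51% (Cox7b) and 21.0% (Cox8a) of the stretches. Only unique reads were counted, so partner levels may be too low, most of all for Cox8a. The part of this in the shares and ratios below was not tested.

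Between 3994026 and 13559548 reads were counted per mouse, and the 94 genes took 0.404% to 0.696% of it. The lowest shares were those of the PND 7 mice, at 0.409% and 0.404%. At PND 14 the shares were 0.532% and 0.626%, and at PND 28 they were 0.696% and 0.613%. Marker genes set PND 14 mouse 1 apart from PND 14 mouse 2. The summed level of 7 elongating spermatid markers was 268 CPM (counts scaled to the TMM-adjusted library total, where TMM is edgeR's factor for differences in composition) in PND 14 mouse 1 and 12 CPM in PND 14 mouse 2, beside 13.7 to 15.0 CPM at PND 17 and 7282 to 9367 CPM at PND 28. In PND 14 mouse 1, protamine 1 (Prm1) was at 133 RPKM, against 2.46 in the other PND 14 mouse and 2.19 and 3.25 at PND 17. The summed level of 7 Sertoli cell markers was 1740 CPM in that mouse and 914 in the other, beside 1676 to 2013 CPM at PND 7, 883 to 1266 at PND 17 and 419 to 568 at PND 28. Spermatocyte markers stood at 1716 and 2648 CPM in the PND 14 mice, beside 2335 to 2531 CPM at PND 17. The changes from PND 7 to PND 14 that are named below are therefore also given without PND 14 mouse 1. In whole tissue, fewer cells of a type and less RNA per cell cannot be told apart.

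The testis isoforms of complex IV had the steepest time courses of all subunits. Cox6b2 was at 9.69 and 10.4 RPKM in the PND 7 mice, 113 and 197 at PND 14, 201 and 146 at PND 17, 221 and 289 at PND 21, and 341 and 284 at PND 28. Its partner Cox6b1 was at 62.6 and 45.0 RPKM at PND 7, 43.7 and 54.5 at PND 14, 42.4 and 37.7 at PND 17, 17.0 and 22.5 at PND 21, and 32.1 and 17.2 at PND 28. Both encode the subunit that links the monomers of the complex IV dimer on the intermembrane side. The PND 7 mice were the only ones in which Cox6b1 was above Cox6b2. Between PND 7 and PND 14, Cox6b2 rose by 3.85 ± 0.37 on the log2 scale (SE, adjusted p = 4.9e-05), which is 14.4-fold. From PND 7 to PND 28 the rise was 5.27 ± 0.39 (SE, adjusted p = 1.49e-06). Cox6b1 did not pass in either comparison, with -0.20 ± 0.36 (adjusted p = 0.713) and -0.76 ± 0.37 (adjusted p = 0.0929).

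Cox7b2 was at 19.8 and 13.0 RPKM at PND 7, 103 and 189 at PND 14, 168 and 146 at PND 17, 269 and 209 at PND 21, and 305 and 304 at PND 28. Its partner Cox7b, which lies on the X chromosome, was at 26.1 and 14.8 RPKM at PND 7, 4.63 and 5.57 at PND 14, 5.71 and 7.41 at PND 17, 2.29 and 3.75 at PND 21, and 3.69 and 3.42 at PND 28. Here the isoform and the partner moved apart in opposite directions. Cox7b2 rose by 3.03 ± 0.34 (log2, adjusted p = 0.000142) from PND 7 to PND 14, while Cox7b changed by -2.12 ± 0.43 (adjusted p = 0.0061). From PND 7 to PND 28 the values were 4.50 ± 0.36 (adjusted p = 2.53e-06) and -2.21 ± 0.44 (adjusted p = 0.00129).

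Cox8c had 16 counts in PND 7 mouse 1 and 0 in PND 7 mouse 2, where a count of 0 allows up to 0.426 CPM. Its level was 3.58 and 0 RPKM at PND 7, 62.3 and 99.5 at PND 14, 113 and 68.6 at PND 17, 349 and 190 at PND 21, and 244 and 234 at PND 28. Cox8a was at 22.0 and 11.2 RPKM at PND 7, 37.9 and 42.0 at PND 14, 42.0 and 40.6 at PND 17, 15.3 and 24.2 at PND 21, and 19.4 and 17.4 at PND 28. Cox8c therefore had 2 steps, before PND 14 and between PND 17 and PND 21, and Cox8a was highest at the ages between them. The first step of Cox8c was 5.24 ± 0.69 (log2, adjusted p = 0.000401). The second was 1.66 ± 0.50 with an adjusted p of 0.0564, and so was not called. The size of the first step rests on the few reads at PND 7. Without PND 7 mouse 2 it was 4.40, and without PND 7 mouse 1 no read of Cox8c remained at that age, so no fold is given. Without PND 14 mouse 1, the library with elongating spermatid transcripts, the changes from PND 7 to PND 14 were 4.21 for Cox6b2, 3.41 for Cox7b2, 5.54 for Cox8c and -1.97 for Cox7b (log2), all still called. The calls of these 4 genes at PND 14 and at PND 28 held in all 21 alternatives.

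**Figure D1:**
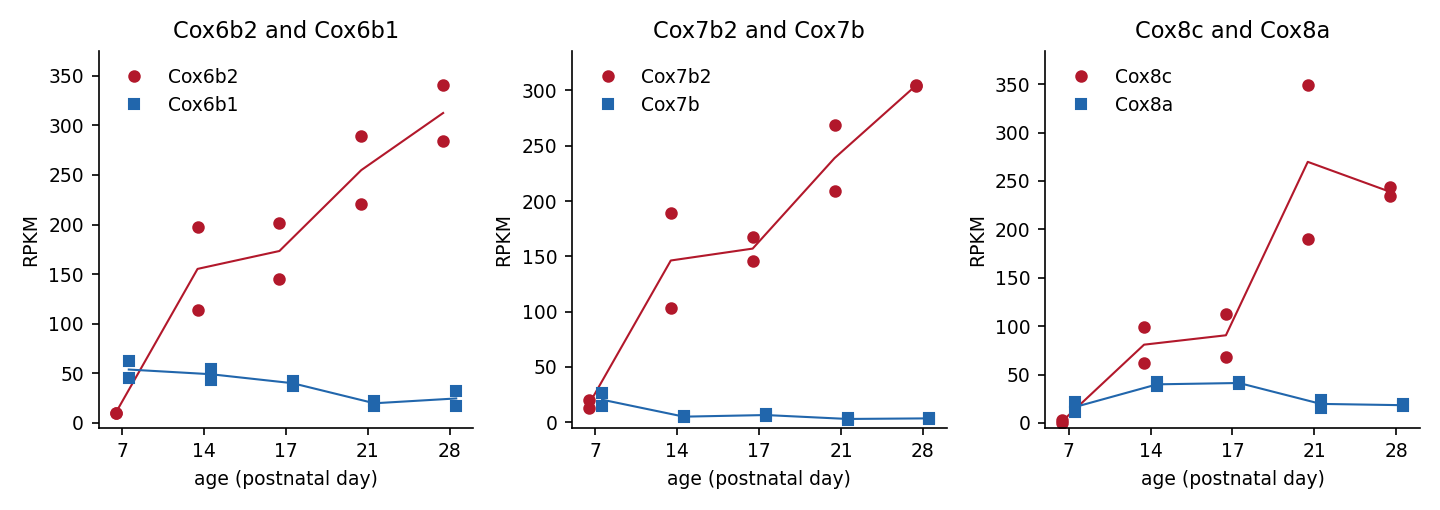
RPKM of the testis isoform (red circles) and its partner (blue squares) in each of the 10 mice, by age in postnatal days, with lines through the age means. The isoform lay below its partner in every PND 7 mouse and above it in every mouse of PND 14 and later.

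The share of the isoform in the summed RPKM of a pair puts the partners on one scale, apart from any partner reads lost to sequence copies. For Cox6b2 the share was 13.4% and 18.8% in the PND 7 mice, between 72.2% and 82.6% in the PND 14 and PND 17 mice, and between 91.4% and 94.3% in the PND 21 and PND 28 mice. For Cox7b2 these ranges were 43.2% to 46.7%, 95.2% to 97.1%, and 98.2% to 99.2%. For Cox8c they were 0% to 14.0%, 62.2% to 72.8%, and 88.7% to 95.8%. The mice of the 3 age ranges did not overlap for any pair. PND 14 and PND 17 overlapped with each other for Cox7b2 and Cox8c but not for Cox6b2, and PND 21 and PND 28 overlapped for all of them.

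The ratio of counts within a library needs no scaling between libraries, and it was compared between the 4 mice of the ages with spermatids (PND 21 and 28) and the 6 mice of the earlier ages. The log2 ratio of Cox6b2 to Cox6b1 was 0.58 ± 2.20 (SD, n = 6) in the early mice and 3.82 ± 0.26 (SD, n = 4) in the late mice. That of Cox7b2 to Cox7b was 1.86 ± 2.57 (SD, n = 6) and 5.18 ± 0.43 (SD, n = 4), and that of Cox8c to Cox8a was -0.98 ± 3.06 (SD, n = 6) and 3.52 ± 0.63 (SD, n = 4). The wide early spread holds the step between PND 7 and PND 14. For each of these pairs the exact two-sided permutation test gave p = 0.00952, the smallest value these 10 mice can give, and an adjusted p of 0.0167 over 7 pairs. Against the 4 mice of PND 14 and PND 17 alone, the differences were 1.84, 1.67 and 2.68 on the log2 scale, each with an adjusted p of 0.04 by the same exact test.

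Among the muscle isoforms Cox7a1 alone had enough counts for a ratio, and its ratio to Cox7a2 was lower in the late mice. Cox7a1 was at 20.1 and 5.93 RPKM at PND 7, 28.3 and 23.7 at PND 14, 24.1 and 26.8 at PND 17, 6.24 and 13.4 at PND 21, and 11.7 and 2.71 at PND 28. Cox7a2 climbed from 103 and 59.5 RPKM at PND 7 through 119 and 154, 185 and 135, and 166 and 220, to 315 and 284 at PND 28, a rise of 2.20 ± 0.33 (log2, adjusted p = 0.000187). The log2 ratio of Cox7a1 to Cox7a2 was -3.66 ± 0.48 (SD, n = 6) in the early and -6.04 ± 1.1 (SD, n = 4) in the late mice (exact permutation p = 0.00952, adjusted p = 0.0167). Cox7a1 itself did not pass the test between PND 7 and PND 28, at -0.48 ± 0.72 (log2, adjusted p = 0.582). Cox6a2 had 3 counts in all mice together and Cox8b had 0, which in a single library allows up to 0.221 to 0.751 CPM, so no ratio is given for these pairs. The summed level of 6 striated muscle markers was 1.05 to 4.84 CPM over all mice.

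Cox4i2 was rare throughout. It had 7 and 0 counts at PND 7, 7 and 22 at PND 14, 12 and 4 at PND 17, 2 and 1 at PND 21, and 0 in both PND 28 mice. Cox4i1, the isoform of most tissues, had the highest mean level of the complex, at 350 RPKM, and ranged from 281 to 443 RPKM. It did not pass the test from PND 7 to PND 28, with 0.44 ± 0.21 (log2, adjusted p = 0.0889). The ratio of Cox4i2 to Cox4i1 fell short of the threshold over all mice (difference -2.35, exact permutation p = 0.0762, adjusted p = 0.107). It passed without PND 7 mouse 2, at -3.06 (adjusted p = 0.0222 by the exact test), and against PND 14 and 17 only, at -3.21 (adjusted p = 0.04).

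**Figure D2:**
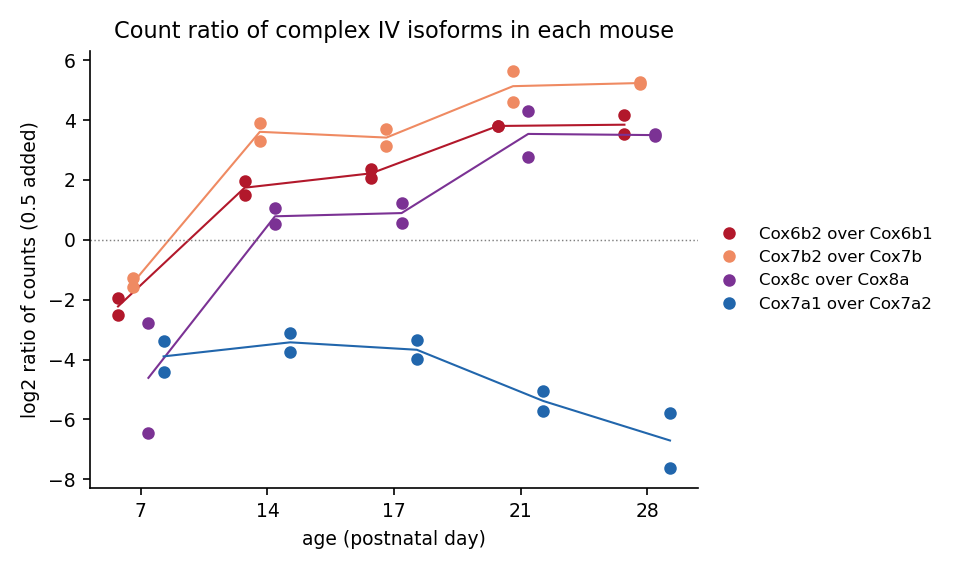
Log2 ratio of counts (0.5 added to each) of 4 isoform pairs in each of the 10 mice by age in postnatal days, with lines through the age means. The 3 testis isoforms rise over their partners in steps at PND 14 and PND 21, while Cox7a1 declines against Cox7a2 after PND 17; the low Cox8c point at PND 7 is the mouse with 0 Cox8c counts.

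The other subunits of complex IV changed less. Cox5a, a subunit on the matrix side, was at 84.5 and 49.2 RPKM at PND 7 and 101 and 110 at PND 28, and rose by 1.01 ± 0.27 (log2, adjusted p = 0.00779). Of its exon length, 38.7% is covered by a gene on the opposite strand, and strand in counting is not given in the sources used here. Cox6a1 was at 82.3 and 85.3 RPKM at PND 7 and 132 and 94.5 at PND 28, with a rise of 0.76 ± 0.30 (adjusted p = 0.0452). Cox5b, Cox6c, Cox7a2l and Cox7c did not pass in any comparison. Their fitted changes from PND 7 to PND 28 were 1.05 ± 0.44, 0.43 ± 0.27, 0.35 ± 0.33 and 0.15 ± 0.42 (log2 ± SE). Summed over its 18 genes, complex IV stood at 694 to 795 RPKM at PND 7, 1085 to 1342 at PND 14, 1133 to 1397 at PND 17, 1571 to 1747 at PND 21 and 1736 to 1938 at PND 28. Without Cox6b2, Cox7b2 and Cox8c the sum was 671 to 762 RPKM at PND 7 and 914 to 1048 at PND 28. These 3 genes therefore account for most of the difference between the ages in these 18 genes. Ndufa4, which is also found with complex IV and was lower at later ages, is not in these sums.

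**Figure D3:**
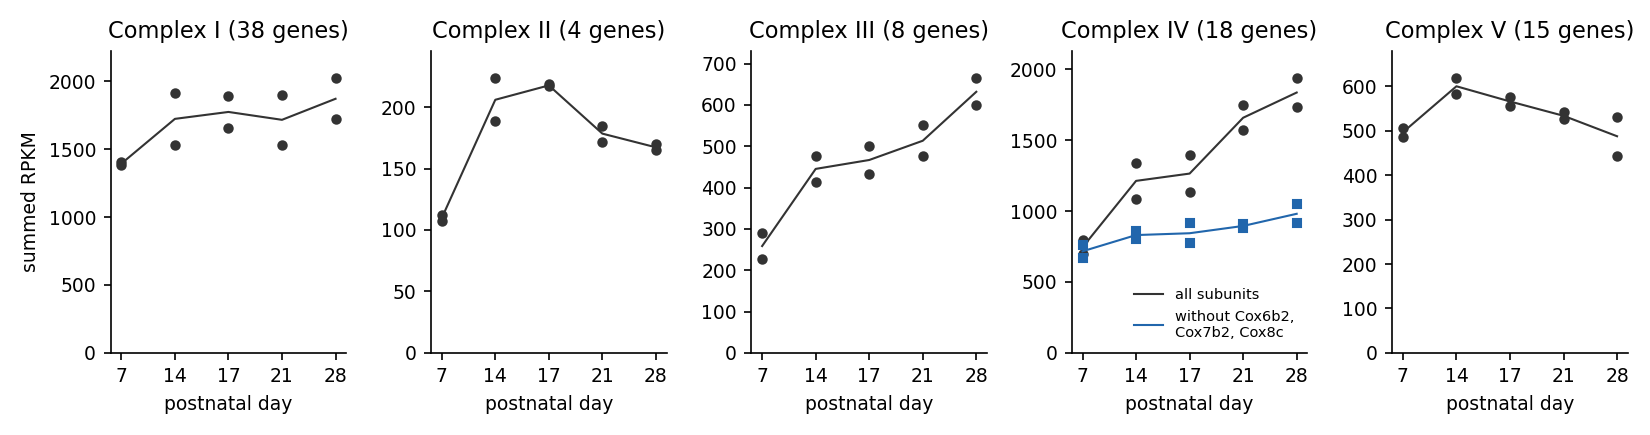
Summed RPKM of the subunit genes of each complex in each of the 10 mice (points) by postnatal day, with lines through the age means; blue squares leave out Cox6b2, Cox7b2 and Cox8c. By age mean, complexes I, III and IV are highest at PND 28, complex II at PND 17 and complex V at PND 14. The complex I sum holds both Ndufb8 entries. The shorter one had a mean of 88.2 RPKM at PND 7 and 318 at PND 28, and its reads cannot be assigned with certainty.

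Across all 94 genes, 88 passed the filter on low counts and entered the test together with all other genes, 16860 in all. Cox4i2, Cox6a2, Cox8b, Atp5g2, Atp5l and Atp5l-ps1 did not. The comparisons of successive ages share mice, and so do the comparisons with PND 7. From PND 7 to PND 14, 19 of 88 members (21.6%) were called at an adjusted p under 0.05, beside 22.3% of all genes tested, so their share was near the background. Of these, 16 (18.2%) were higher at PND 14, beside 15.8% of all genes, and 3 (3.41%) lower, beside 6.43%. A change of at least 2-fold was found in 10 members (11.4%), beside 18.9%. The median log2 fold change of the members was 0.32, beside 0.11 over all genes tested. Without PND 14 mouse 1, 17 members were called, 15 of them among the 19. The count was 9 without PND 7 mouse 2, 10 without PND 14 mouse 2 and 12 without either PND 17 mouse, where 11.5%, 12% and 16.1% to 16.2% of all genes were called. Without PND 14 mouse 1 the share of all genes was 17.3%.

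Some core subunits of complexes I, III and V were among the 16 members that rose by PND 14 (18.2%, beside 15.8% of all genes). In complex I, Ndufv1, which carries the NADH binding site, was at 20.9 and 17.3 RPKM at PND 7 and 43.8 and 44.3 at PND 14, a rise of 1.11 ± 0.21 (log2, adjusted p = 0.00387). Ndufs1, the largest iron-sulfur subunit of that arm, rose by 0.73 ± 0.21 (adjusted p = 0.0312). In complex III, Uqcrc1, a core subunit, was at 42.3 and 35.8 RPKM at PND 7 and 100 and 114 at PND 14, a rise of 1.36 ± 0.24 (adjusted p = 0.00265). Uqcrfs1, the Rieske iron-sulfur protein, rose by 0.98 ± 0.24 (adjusted p = 0.0142). The membrane anchors of complex II, Sdhc and Sdhd, rose by 1.20 ± 0.23 (adjusted p = 0.00459) and 1.04 ± 0.22 (adjusted p = 0.00722). Sdha and Sdhb, the other genes of complex II, were not called at PND 14 in the fit of all mice. Without PND 14 mouse 1 their changes were 0.80 and 0.69 (log2). In complex V, Atp5a1 and Atp5b rose by 0.78 ± 0.25 (adjusted p = 0.0462) and 0.70 ± 0.21 (adjusted p = 0.0402). All 8 of these were still called without PND 14 mouse 1, with 1.15 for Ndufv1, 0.89 for Ndufs1, 1.47 for Uqcrc1, 1.03 for Uqcrfs1, 1.32 for Sdhc, 1.15 for Sdhd, 1.01 for Atp5a1 and 0.81 for Atp5b.

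Besides Cox7b, 2 members were called lower at PND 14 in the fit of all mice. Ndufab1 was not among them, and its change was -1.88 (log2) without PND 14 mouse 1. Ndufa4, which was long counted with complex I and is also found with complex IV, was at 267 and 278 RPKM at PND 7, 130 and 173 at PND 14, 144 and 157 at PND 17, 77.0 and 85.3 at PND 21, and 60.9 and 57.8 at PND 28. The mice of PND 7, of PND 14 and 17, of PND 21 and of PND 28 did not overlap. Ndufa4 is counted here with complex I by its prefix, so its levels are in the sums of complex I and not of complex IV. Its change was -0.93 ± 0.23 (log2, adjusted p = 0.0174) to PND 14 and -1.86 ± 0.24 (adjusted p = 7.05e-05) to PND 28. Atp5g3, a gene for the rotating c subunit of complex V, was at 64.3 and 88.3 RPKM at PND 7 and 46.0 and 48.9 at PND 14, with -0.79 ± 0.21 (adjusted p = 0.0234). The change to PND 14 was -0.72 for both genes without PND 14 mouse 1 (adjusted p = 0.0842 for Ndufa4 and 0.0898 for Atp5g3). The calls at PND 14 were lost without PND 7 mouse 2 or PND 14 mouse 1 for both genes, and for Atp5g3 also without PND 14 mouse 2 or either PND 17 mouse.

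The assembly factor Ndufaf3 had the largest fitted rise of all members except Cox8c, both to PND 14 and to PND 28. Ndufaf3 acts early in the assembly of complex I and is not a subunit of the finished enzyme. It was at 3.55 and 0.565 RPKM at PND 7, 46.5 and 89.8 at PND 14, 115 and 74.5 at PND 17, 135 and 198 at PND 21, and 234 and 179 at PND 28. The rise was 4.90 ± 0.63 (log2, adjusted p = 0.00034) to PND 14 and 6.91 ± 0.67 (adjusted p = 9.13e-06) to PND 28. It ranged from 4.20 to 6.89 and from 6.20 to 8.89 in these comparisons over all alternatives tried, with the extremes from leaving out either PND 7 mouse. The rise to PND 14 was 5.30 without PND 14 mouse 1 (adjusted p = 0.000146). The gene, at chr9:108468197-108469673 on the minus strand, had no 50-base stretch copied elsewhere and no exon shared with another gene. The other assembly factors were less steep. Ndufaf2 was at 40.1 and 20.1 RPKM at PND 7, 63.6 and 56.8 at PND 21, and 135 and 124 at PND 28. Ndufaf4 declined from 5.57 and 5.83 RPKM at PND 7 to 1.88 and 1.57 at PND 28, a change of -1.38 ± 0.31 (log2, adjusted p = 0.00249). Ndufaf1 rose by 0.96 ± 0.30 to PND 28 (adjusted p = 0.0167), and Sdhaf1 and Sdhaf2 did not pass there (0.93 ± 0.48 and -0.45 ± 0.22).

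**Figure D4:**
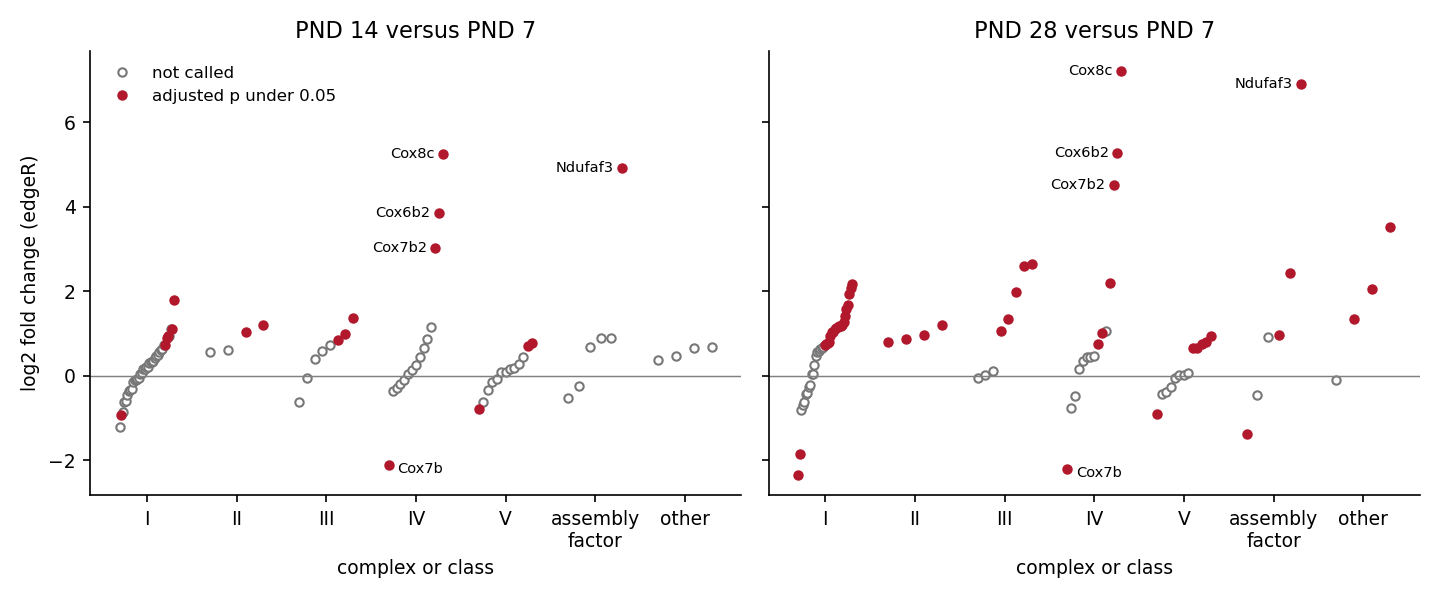
Log2 fold change fitted by edgeR for each of the 88 genes tested, by complex or class, for PND 14 versus PND 7 (left) and PND 28 versus PND 7 (right); filled red points have an adjusted p under 0.05. Cox8c, Ndufaf3, Cox6b2 and Cox7b2 stand above all other members in both panels.

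Between PND 14 and PND 17, 0 members were called, beside 0% of all genes. At an unadjusted p under 0.05 edgeR also gave 0 members, beside 4.56% of all genes, and DESeq2 called 0 members. Between PND 17 and PND 21, 0 members were called, beside 11.8% of all genes, although 12 members (13.6%) had an unadjusted p under 0.05, beside 28.2%. DESeq2 called 2 members there, beside 15.3% of all genes with an adjusted p. With each mouse of PND 7 or PND 14 left out in turn, the median log2 fold change of the members was 0.065 to 0.080. That of all genes was 0 to 0.0048. These mice are of ages outside this comparison. Without PND 21 mouse 1 or mouse 2 the member median was 0.136 or -0.113. Without PND 17 mouse 1 or mouse 2 it was 0.046 or -0.0040, so its sign depends on single mice. Between PND 21 and PND 28, 1 member was called (1.14%), beside 8.27% of all genes, and it was higher, as were 7.91% of all genes. This was Ndufaf2, with 1.33 ± 0.30 (log2, adjusted p = 0.0186), and the call was lost without any 1 of the PND 21 or PND 28 mice. DESeq2 called 4 members between PND 21 and PND 28, beside 9.35% of all genes.

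From PND 7 to PND 28, 50 of 88 members (56.8%) were called, beside 62.6% of all genes tested. The direction was uneven, with 45 members higher (51.1%), beside 35.6% of all genes, and 5 lower (5.68%), beside 27.1%. With library totals in place of TMM scaling, the split was 32 higher (36.4%), beside 31.3% of all genes, and 11 lower (12.5%), beside 33.8%. The members with at least a 2-fold change numbered 34 (38.6%), beside 55.6%. The median log2 fold change was 0.75 for the members and 0.10 for all genes. By age means of TMM-scaled CPM, 53 of 88 members (60.2%) were highest at PND 28, beside 36.4% of all genes, and 16 (18.2%) at PND 7, beside 33.2%. By age means of RPKM, 29 members (33%) were highest at PND 28, beside 28.3% of all genes, and 17 (19.3%) at PND 7, beside 32.7%, so the share with a peak at PND 28 depends on the scaling. For any change over the 5 ages, 39 members (44.3%) were called, beside 57.5% of all genes. Without PND 14 mouse 1, 50 members were called from PND 7 to PND 28, the same genes as with it.

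By complex, all 4 subunits of complex II rose by PND 28, and 5 of 8 in complex III, 19 of 38 in complex I, 6 of 15 tested in complex IV and 5 of 13 tested in complex V, beside 35.6% of all genes. In complexes I, IV and V 2, 1 and 1 fell, beside 27.1% of all genes, and differences between complexes were not tested. The median log2 fold change was 1.20 in complex III, 0.91 in complex II, 0.74 in complex I, 0.46 in complex IV and 0.02 in complex V. In complex III, Uqcrq was at 17.5 and 24.5 RPKM at PND 7, 34.0 and 40.9 at PND 14, 52.2 and 41.5 at PND 17, 58.0 and 74.1 at PND 21, and 110 and 98.7 at PND 28. This small subunit sits next to cytochrome b, and its rise of 2.63 ± 0.27 (log2, adjusted p = 1.43e-05) was close to that of Uqcrc1, 2.60 ± 0.25 (adjusted p = 8.35e-06). Uqcrc1 reached 207 and 172 RPKM at PND 28.

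In complex II, Sdha, the flavoprotein that oxidises succinate, was at 44.2 and 44.0 RPKM at PND 7 and 63.7 and 58.4 at PND 28, with 63.0 to 80.5 RPKM at PND 14 and PND 17. The age mean of Sdha was highest at PND 17 in RPKM (76.4) and at PND 28 in TMM-scaled CPM (279.5). Its rise to PND 28 was 0.80 ± 0.22 (log2, adjusted p = 0.00906). Sdhb, which carries the iron-sulfur clusters, rose by 1.19 ± 0.22 (adjusted p = 0.000741). The summed level of complex II was 107 to 112 RPKM at PND 7, 188 to 224 at PND 14 and PND 17, and 165 to 185 at PND 21 and PND 28. These RPKM values are relative to the counted reads of a library without TMM scaling, so a level can decline on this scale where the fitted change does not.

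In complex I, core subunits of the NADH-oxidising arm rose to PND 28, with Ndufv1 at 1.58 ± 0.21 (log2, adjusted p = 8.24e-05) and Ndufs1 at 1.17 ± 0.21 (adjusted p = 0.000685). Ndufab1, the mitochondrial acyl carrier protein, was the lowest of the complex by mean level, at 1.61 RPKM, and declined from 2.92 and 4.54 RPKM at PND 7 to 0.63 and 0.52 at PND 28, a change of -2.35 ± 0.46 (adjusted p = 0.00117). The highest mean level, 217 RPKM, belonged to the shorter Ndufb8 entry (ENSMUSG00000091471), whose exons lie wholly inside those of another Ndufb8 entry and of Sec31b, so reads cannot be assigned to it with certainty. Both entries rose, by 2.18 ± 0.41 and 1.94 ± 0.34. Ndufa4l2, a relative of Ndufa4 that only shares the prefix, was at 1.98 and 0 RPKM at PND 7 and 12.4 and 8.23 at PND 28. Its fitted rise of 3.52 ± 0.87 (adjusted p = 0.00478) was 2.62 without PND 7 mouse 2, while PND 7 mouse 2 alone holds no count of it. Atp5s and Atp5sl, which are not counted as subunits here, rose by 2.06 ± 0.34 and 1.35 ± 0.30, and Cox4nb did not pass, at -0.10 ± 0.35.

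In complex V, Atp5a1 had the highest mean level, 128 RPKM, and rose by 0.75 ± 0.25 to PND 28 (log2, adjusted p = 0.0228), while Atp5b rose by 0.93 ± 0.22 (adjusted p = 0.00324). The c subunit is encoded by Atp5g1, Atp5g2 and Atp5g3, which differ in the targeting peptide. Atp5g3 was lower at PND 28, at 32 and 33 RPKM, with a change of -0.91 ± 0.21 (adjusted p = 0.00336). Atp5g1 stayed between 0.20 and 1.49 RPKM, and Atp5g2 was listed at 0 in all mice. The summed level of complex V was 487 to 507 RPKM at PND 7 and 444 to 532 at PND 28, and these ranges overlap.

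The X-linked members are Cox7b, Ndufa1 and Ndufb11. None of them was called between PND 17 and PND 21, where 11.8% of all genes were called. The X chromosome is silenced in spermatocytes from pachytene on, and its part in the levels of these genes was not tested. Cox7b fell early, as given above. Ndufa1, a small membrane subunit of complex I, was at 23.4 and 3.89 RPKM at PND 7, 45.2 and 61.8 at PND 14, 65.2 and 58.3 at PND 17, 30.1 and 37.6 at PND 21, and 23.8 and 25.9 at PND 28. Its PND 7 mice differ more than any later pair, and its rise of 1.79 ± 0.57 to PND 14 (log2, adjusted p = 0.0465) was called in only 8 of 21 alternatives. It was 2.02 without PND 14 mouse 1 (adjusted p = 0.055). Without PND 7 mouse 2 it was 1.06, without PND 7 mouse 1 it was 3.63. Ndufb11 was at 8.49 and 15.9 RPKM at PND 7, 11.9 to 12.2 at PND 14 and PND 17, and 4.17 to 9.13 at PND 21 and PND 28, and did not pass from PND 7 to PND 28 (-0.22 ± 0.41).

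Part of the low levels goes with sequence copies. The authors counted reads that align uniquely, and many respiratory genes have processed pseudogenes. Of 83 subunit genes, 39 had no 50-base stretch with an exact copy elsewhere in mm9, and their mean RPKM had a median of 51.1. The 29 genes with under 20% of stretches copied had a median of 30.6, the 10 genes with 20% to 50% a median of 8.06, and the 5 genes with 50% or more a median of 8.05. Atp5g2, listed at 0, had 100% of its stretches copied. Atp5l, with 14 counts in all, had 89.4%, and Uqcrb, the lowest of complex III at 8.05 RPKM, had 61.5%. Cox5b had 56.5% and Cox7a2l 53.2%. Cox6a2 and Cox8b had 0%. The part of copies in these levels was not tested, and levels of different subunits are therefore not read as a stoichiometry. Exons of other genes on the opposite strand cover 30.2% of the exon length of Ndufa13 (Tssk6, a spermatid kinase), 39.0% of Ndufb6, 31.2% of Atp5o and 65.9% of Sdhaf1. Of these, Ndufa13, Ndufb6 and Atp5o were called higher at PND 28, and reads from both strands may be joined in their counts.

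**Figure D5:**
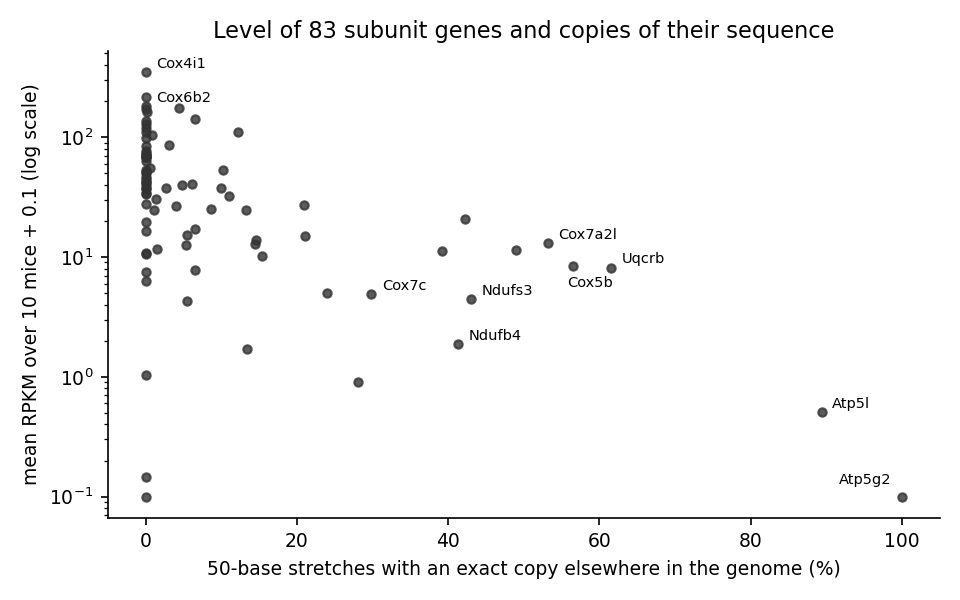
Share of the 50-base stretches of each subunit gene that have an exact copy elsewhere in the genome (x axis, percent) against its mean RPKM over 10 mice plus 0.1 (y axis, log scale), for 83 subunit genes. Atp5g2 and Atp5l, with 100% and 89.4% copied, lie at the bottom right, and Cox4i2, Cox6a2 and Cox8b lie at the bottom left with 0% copied.

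Genes that work with the respiratory chain were described in lists. Cytochrome c has a testis form, Cyct, and a somatic form, Cycs. Cyct was at 6.30 and 10.0 RPKM at PND 7, 62.8 and 123 at PND 14, and 124 and 113 at PND 28, and rose by 3.47 ± 0.38 to PND 14 (log2, adjusted p = 0.000109) and 4.23 ± 0.39 to PND 28 (adjusted p = 6.14e-06). The rise of Cyct to PND 14 was 3.89 without PND 14 mouse 1. Cycs was at 4.48 and 6.27 RPKM at PND 7 and 1.05 and 0.35 at PND 28, a change of -2.51 ± 0.53 (adjusted p = 0.00174). Among 8 testis isoforms of energy metabolism, Cyct included, 7 rose to PND 14, beside 15.8% of all genes, and 8 to PND 28, beside 35.6%. The count to PND 14 was 6 when PND 14 mouse 1 was left out, with Eno4 no longer called. Gapdhs, the glycolytic enzyme of the sperm tail, was at 0 RPKM in both PND 7 mice, 18.4 and 0.46 at PND 14, 0.64 and 0.99 at PND 17, 24.2 and 13.2 at PND 21, and 223 and 231 at PND 28, so most of its PND 14 signal was in PND 14 mouse 1. Of 9 widely expressed partners, 1 rose and 2 fell to PND 28, beside 35.6% and 27.1% of all genes. The riser was Ldha, at 2.98 and 8.69 RPKM at PND 7 and 86.6 and 85.9 at PND 28, and Cycs and Pdha1 fell.

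Of the 13 subunits encoded in mitochondrial DNA, 8 were tested, and 7 of these fell to PND 14 and to PND 28. Among all genes, 6.43% and 27.1% fell in these comparisons. The level of mt-Nd3, mt-Nd4l, mt-Atp6 and mt-Atp8 was at most 1.92 RPKM in any mouse, and that of mt-Co2 and mt-Co3 at most 6.26. By contrast, mt-Co1 was at 665 RPKM or more in all mice. Whether these low levels go with reads lost to copies was not tested. The median log2 fold change of the 8 was -2.25 to PND 28. Without PND 14 mouse 1, the fitted changes of the mitochondrial subunits to PND 14 lay between -2.94 and -1.05 (log2). The median over the 78 nuclear subunits tested was 0.70 to PND 28, and that over complex V alone was 0.02, as given above. Libraries were made from RNA depleted of ribosomal RNA, and the mitochondrial share of counts went from 37.3% and 36.7% at PND 7 to 15.1% and 15.6% at PND 28. Without mitochondrial genes and small structural RNAs in the totals, 24 members were called at PND 14 and 50 at PND 28, beside 24.1% and 64.4% of all genes. The shares of all genes that rose and fell to PND 28, 35.6% and 27.1%, also stand beside the next counts. Among 14 citric acid cycle genes, 6 rose (42.9%) and 4 fell (28.6%) to PND 28, with a median log2 fold change of 0.05, beside 0.10 over all genes. Among 20 assembly factors outside the prefixes, 4 rose (20%) and 2 fell (10%), with a median of 0.09. Of 12 tested regulators, 4 rose (33.3%) and 2 fell (16.7%). Tfam, which packages mitochondrial DNA, was at 10.0 and 15.3 RPKM at PND 7, 5.06 and 4.25 at PND 21, and 29.5 and 39.4 at PND 28, a rise of 3.12 ± 0.27 from PND 21 (log2, adjusted p = 0.000196). Crem, the activator of postmeiotic genes, was at 2.12 and 1.61 RPKM at PND 7 and 64.7 and 54.0 at PND 28.

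Promoters were searched for motifs of known regulators of these genes, on both strands of the 300 bases around each start in the RefSeq table of GRCm38.p6. The table held 73 of the 93 symbols. A symbol was counted if any of its promoters held the motif. The background was all 27025 symbols of the table, whether or not they are expressed in testis. The NRF-1 motif GCGCANGCG was in 28.8% of member symbols, beside 7.03% of all symbols, and the GABP motif CCGGAAG in 26%, beside 9.93%. The YY1 motif AAGATGGC was in 12.3%, beside 3.19%, and the ERR motif TCAAGGTCA in 2.74%, beside 0.466%. The CRE motif TGACGTCA was in 5.48%, beside 2.03%, and the TATA box TATAAA in 9.59%, beside 15.7%. Cox6b1 and Cox8a held a GABP motif, and Cox6a1 held GABP and NRF-1 motifs. Cox7b2 held a TATA box and none of the other motifs. Cox8c has no entry in the table. No motif was recorded for Cox6b2 or Cox7b, nor for Cox4i1, Cox5a, Cox5b, Cox6c, Cox7a2 and Cox7c. Genes without a promoter in the table also have no record, so testis and widely expressed isoforms cannot be contrasted here. These letters describe the windows and show no binding.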

How the data were processed

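Whole testis RNA of 10 mice was measured in 12 libraries. Each PND 7 mouse was deposited under 2 barcodes, whose counts were summed and RPKM averaged. The authors aligned 50-base SOLiD reads to mm9 with LifeScope, dropped ribosomal, transfer and repeat reads and reads with many alignments, and deposited the count of unique reads per Ensembl gene, and an RPKM per gene, which divides the count by exon length and counted reads. Use of strand is not given in the sources used here.

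Counts were tested with edgeR 4.0.16 in R 4.3.3 (TMM, filterByExpr, quasi-likelihood) in a fit of all 10 mice with age as a factor. Benjamini-Hochberg adjustment was over the 16860 genes tested, and genes were called at an adjusted p under 0.05. SE is the log2 fold change over the root of F. CPM values use TMM-scaled totals, except the limit of 3 counts that a 0 allows, which uses the raw total and covers counting error only. The smallest exact permutation p for 2 against 2 mice exceeds 0.05, so calls rest on the spread shared across genes. The labels do not name separate litters, so p-values measure the spread between these mice. Isoform ratios used scipy 1.17.1 and counts plus 0.5. With fewer than 4 counts of an isoform no ratio was taken, and the 2 pairs concerned were still counted in the adjustment over 7 pairs.

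DESeq2 1.42.0, limma 3.58.1 on log2(RPKM + 1) or log2(RPKM + 0.1), other scalings and filters, a replicate block, separate barcodes and leaving out each mouse were alternatives. Scripts were tested on simulated data. Named genes were the complex IV subunits, core subunits, X-linked members, non-subunits, untested members, the highest and lowest subunit of each complex, and the 5 largest rises and falls called per comparison. One result for a named gene is not reported here. The members and lists were chosen with earlier results of these data known.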

Additional observations from a re-analysis of the deposited data

How the results depend on the processing

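With 2 mice per age, 9 to 24 members were called between PND 7 and PND 14 when each mouse was left out in turn, 0 to 0 between PND 14 and PND 17, 0 to 2 between PND 17 and PND 21, 0 to 2 between PND 21 and PND 28, 40 to 50 between PND 7 and PND 28, and 27 to 44 for any change over the 5 ages. Over all genes tested the shares were 11.5% to 26% between PND 7 and PND 14, 46.6% to 61.5% between PND 7 and PND 28 and 41.9% to 59.7% for any change. In the later intervals they were 0% to 0.973%, 1.48% to 14.3% and 1.73% to 10.4%, in order of age. With each PND 7 barcode as a library, 31 members were called between PND 7 and PND 14, 2 between PND 17 and PND 21 and 3 between PND 21 and PND 28, where 34%, 16.5% and 11.1% of all genes were called. With limma on log2(RPKM + 0.1), the counts were 9 between PND 7 and PND 14, 0 between PND 21 and PND 28, 31 between PND 7 and PND 28 and 18 for any change, beside 8.74%, 2.66%, 40.9% and 34.3% of all genes. Between PND 17 and PND 21, 1 member was called with RLE scaling, library totals, limma on log2(RPKM + 1), only the 4 mice, or without mitochondrial genes and small structural RNAs, 2 with DESeq2 and 4 with no filter, where 7.51% to 15.4% of all genes were called. Between PND 21 and PND 28, 3 were called with RLE scaling, 4 with DESeq2, 5 with no filter, 2 with only the 4 mice, and 0 with library totals or limma on log2(RPKM + 1), where 6.1% to 14.7% of all genes were called. The cause of these differences was not tested. Library totals moved the median log2 fold change of all genes from 0.10 to -0.22 between PND 7 and PND 28, and that of members from 0.75 to 0.43.

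The isoform differences ranged from 2.62 to 3.60 for Cox6b2, 2.63 to 3.73 for Cox7b2, 3.4 to 4.93 for Cox8c, -2.71 to -1.85 for Cox7a1 and -3.06 to -1.82 for Cox4i2 when each mouse was left out. The Cox4i2 ratio passed against PND 14 and 17 only, at -3.21. The other 4 pairs kept their direction and stayed under the threshold in all alternatives. Of the 399 values of 19 named changes under an alternative, 369 kept the call, 30 lost it and 0 reversed. The losses were those of Ndufa1 (13 of 21), Atp5g3 (7 of 21) and Ndufa4 (3 of 21) at PND 14, and of Ndufaf2 (7 of 21) between PND 21 and PND 28. With mouse number as a replicate block, 15 members were called between PND 7 and PND 14, and 0, 0 and 1 in the later intervals. The shares of all genes in these 4 intervals were 19.8%, 0%, 10.3% and 6.93%. The block gave 46 members between PND 7 and PND 28 and 37 for any change, beside 61% and 55.1% of all genes. The labels name no shared litter. The deviations of same-numbered mice correlated between -0.17 and 0.34, with the highest value between PND 14 and PND 21. Whether same-numbered mice share a litter or a preparation was not tested. Counts of 2 mice limit what can be called for members under about 10 counts.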
